A study of Mus musculus with 18 samples.

Results

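The proteins of the ribosome in the cytosol are encoded by the cytosolic ribosomal protein genes, and their mRNAs were followed here through loading of macrophages with modified low-density lipoprotein (LDL). The members were the genes whose symbol starts with *Rpl* or *Rps* and a number (with the endings a, l, x or y that the family uses) and *Rpsa*, *Rplp0*, *Rplp1* and *Rplp2*, without the kinases named *Rps6k*, that had at least 10 counts summed over the libraries. Of 31053 genes listed, 83 had such a name and 80 reached the minimum, by name 32 of the small and 48 of the large subunit. All 80 members passed the filter on low counts that left 12290 genes for testing. The names left out, *Rpl3l*, *Rpl39l* and *Rpl10l*, had 2, 2 and 3 counts in all. The rule did not use the level of a gene in any group, but the members were chosen with earlier results of these data known.

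RNA-Seq of total RNA was done on bone marrow-derived macrophages from 12-week-old mice on the C57Bl/6J background, 3 myeloid knockouts labelled *Slc7a7*-/- (KO) and 3 controls labelled *Slc7a7*+/+ (WT). *Slc7a7* encodes a cationic amino acid transporter subunit, and LysM-Cre, which sits in the lysozyme gene *Lyz2*, removes it in myeloid cells and not in the whole animal. Cells of every mouse were seeded at 100000 and kept for 24 h with acetylated LDL (AcLDL, 50 µg/mL), oxidized LDL (OxLDL, 100 µg/mL) or phosphate-buffered saline (Control), so that each group of genotype and medium had 3 libraries and each mouse gave 3. WT and KO mice of the same number are different animals, and the libraries of the WT mice carry numbers 1 to 9 and those of the KO mice 10 to 18, so that genotype and whatever these numbers stand for cannot be told apart.

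A ribosome is built of ribosomal RNA and proteins, most of them in a single copy, and cells make the proteins in balance. Ribosomal protein mRNAs are among the most abundant of a cell, and they belong to the TOP class, which start with a tract of pyrimidines and whose translation follows mTORC1, the kinase complex that senses amino acids, through the binding protein Larp1. The same class holds elongation factors such as *Eef1a1* and *Eef2*. In macrophages, uptake of modified LDL through scavenger receptors loads the cells with cholesterol.

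The libraries had 1043492 to 1768816 counts (median 1466145). The members took 2.63% to 4.94% of them, 39272 to 68466 counts per library. The 3 libraries of WT mouse 1 had the lowest totals within their groups and the highest shares of members, 4.63%, 4.51% and 4.94%, and they also had the highest shares of mitochondrial ribosomal protein counts of their groups. *Slc7a7* itself was at 11.1, 12.6 and 21.1 CPM (counts relative to the TMM-adjusted total of the library) in WT Control and at 10.2, 4.33 and 5.16 in KO Control, with no overlap, and in AcLDL it was 2.89 lower in KO on the log2 scale (edgeR quasi-likelihood test, adjusted p = 0.000472). In OxLDL it was at 25.9 to 29.3 CPM in WT and 8.67 to 10.9 in KO. All 10 macrophage markers were detected, with a summed level of 13411 to 36638 CPM, while dendritic markers summed to at most 5.20 CPM, lymphoid to at most 0.842 and erythroid to at most 1.86. Neutrophil markers summed to 25.5 to 252 CPM and stromal markers to at most 34.9.

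Sequences around annotated starts (RefSeq, GRCm38.p6) were at hand for 60 of the 80 members. A run of at least 8 pyrimidines that begins with C lay within 30 bases of the start on the coding strand in 33 of 60 members (55.0%), compared with 17 of 69 mitochondrial ribosomal protein genes (24.6%) and 20.6% of all 27025 genes in the table. CCGGAAG, the core bound by ETS factors, was found on either strand of the window from 250 bases before to 50 after the start in 41.7% of members, 37.7% of mitochondrial ribosomal protein genes and 9.93% of all genes. AAGATGG, the core of the site of the factor YY1, was found on either strand in 16.7%, 18.8% and 7.28%, and TATAAA in 11.7%, 7.25% and 15.7%. The letters are a description of the windows and no evidence of binding or of the start used in these cells. Shown are the 60 bases before and 20 after the annotated start of 4 members that are described below for their fall with OxLDL and of both members that followed the rest least closely, in lower case with the pyrimidine runs and the motifs named above, on either strand, in capitals.
Rps15, chr10:80292371-80292450, plus strand: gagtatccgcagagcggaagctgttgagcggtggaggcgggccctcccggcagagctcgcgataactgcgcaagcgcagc
Rps9, chr7:3703981-3704060, plus strand: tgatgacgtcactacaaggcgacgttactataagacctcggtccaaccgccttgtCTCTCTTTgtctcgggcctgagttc
Rps6, chr4:86857348-86857427, minus strand: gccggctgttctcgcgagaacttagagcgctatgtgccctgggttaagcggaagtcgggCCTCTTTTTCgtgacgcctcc
Rpl28, chr7:4792905-4792984, plus strand: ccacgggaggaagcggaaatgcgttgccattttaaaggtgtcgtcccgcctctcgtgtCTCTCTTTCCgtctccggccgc
Rps27l, chr9:66946026-66946105, plus strand: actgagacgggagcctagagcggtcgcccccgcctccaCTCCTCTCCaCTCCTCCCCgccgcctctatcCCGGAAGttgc
Rpl22l1, chr3:28805448-28805527, plus strand: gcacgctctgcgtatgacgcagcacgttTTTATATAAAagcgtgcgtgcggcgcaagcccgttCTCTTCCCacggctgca
*Rps27l* has another annotated RefSeq start, with the window chr9:66946353-66946432, which is not printed and had no pyrimidine run and no CCGGAAG. The tract spanned the annotated start of *Rps6*, *Rps9* and *Rpl28*. The window of *Rps15*, the member with the largest fall, held no run of this kind and none of the motifs. In GENCODE *Rps15* starts at chr10:80292453, past the end of the window shown. The lack of a run therefore holds for the RefSeq start only. The GENCODE starts of *Rps6*, *Rps9* and *Rpl28* are chr4:86857412 (minus strand), chr7:3703993 and chr7:4792874. Each lies before the RefSeq start, and that of *Rpl28* also before its window. The place of the tract in these genes likewise holds for the RefSeq start only.

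Next, the levels of the members were compared per length, as mean CPM over the 6 groups for each kilobase of the principal transcript (GENCODE, GRCm38). The highest was *Rpl26* (large subunit, chromosome 11) at 2433 CPM per kb, followed by *Rplp1*, an acidic protein of the stalk that contacts elongation factors, at 1594, and *Rps23* of the decoding site at 1257. The lowest were *Rpl7l1* at 30.1, *Rps27l* at 54.2 and *Rpl18* at 62.3 CPM per kb, and the members spanned an 80.7-fold range with a median of 422. This order depends on the transcript that is taken as the length. With the median length of the protein-coding transcripts only *Rpl26* stayed among the 3 highest, and *Rpl7l1* and *Rps27l* among the 3 lowest, while single members moved by up to 41 places (median 6). *Rps15a* is such a case, since its principal transcript has 5179 bases.

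Reads of ribosomal protein genes can be shared with copies elsewhere in the genome. Of the 31-base words of a member's principal transcript, a median of 49.7% also occurred in another annotated gene, but 45 members shared none with another gene of the deposited table, where fewer such copies are listed. Of those with a named pseudogene in the table, the share was largest for *Rpl9* (89.1%), *Rpl10* (85.7%) and *Rps12* (83.8%), whose pseudogenes held at most 1.47% as many counts as the parent. *Rpl27-ps3* was the exception, with 41.2% as many counts as *Rpl27*, so that the counts of *Rpl27* are uncertain. *Rps27* shared 98.7% of its words with other genes of the table, and its counts are uncertain too. In all, 13 members shared over 50% of their words with other genes of the table, among them *Rps18* (87.7%) and *Rplp1* (72.5%). The effect of shared words on their counts was not tested.

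The members moved together from library to library. Counts of the large subunit were 1.49 to 1.58 times those of the small subunit in all 18 libraries, with group means of 1.52 to 1.54. The SD of log2 CPM over the 18 libraries had a median of 0.26 over members, and after the median of all members in each library was taken off, it fell to a median of 0.11. The lowest was *Rps26* at 0.055. The highest were the paralogs *Rpl22l1* at 0.27 and *Rps27l* at 0.27, then *Rpl27* at 0.20, *Rps27* at 0.18 and *Rpl7l1* at 0.18, and the 3 paralogs among these were at low levels.

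To see how the set as a whole responded, its share of all counts was compared (the plot of shares by mouse). In KO it was 3.72% ± 0.255 (SD, n = 3) in Control, 3.49% ± 0.0616 in AcLDL and 3.06% ± 0.227 in OxLDL. With OxLDL the share fell by 16.99% of its Control value in KO mouse 1, by 21.7% in mouse 2 and by 14.5% in mouse 3, and the KO OxLDL libraries (2.89%, 2.98% and 3.32%) lay below the KO Control libraries (3.49%, 3.68% and 3.998%). In WT the shares were 3.89% ± 0.656 in Control, 3.82% ± 0.613 in AcLDL and 3.66% ± 1.18 in OxLDL. The WT mice did not move alike. With OxLDL the share rose by 6.73% of the Control value in mouse 1 and by 1.16% in mouse 3. In mouse 2 it fell by 28.0%. The groups overlapped in WT. In bulk RNA, less ribosomal protein mRNA per cell and more of other RNA cannot be told apart.

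**Figure D1:**
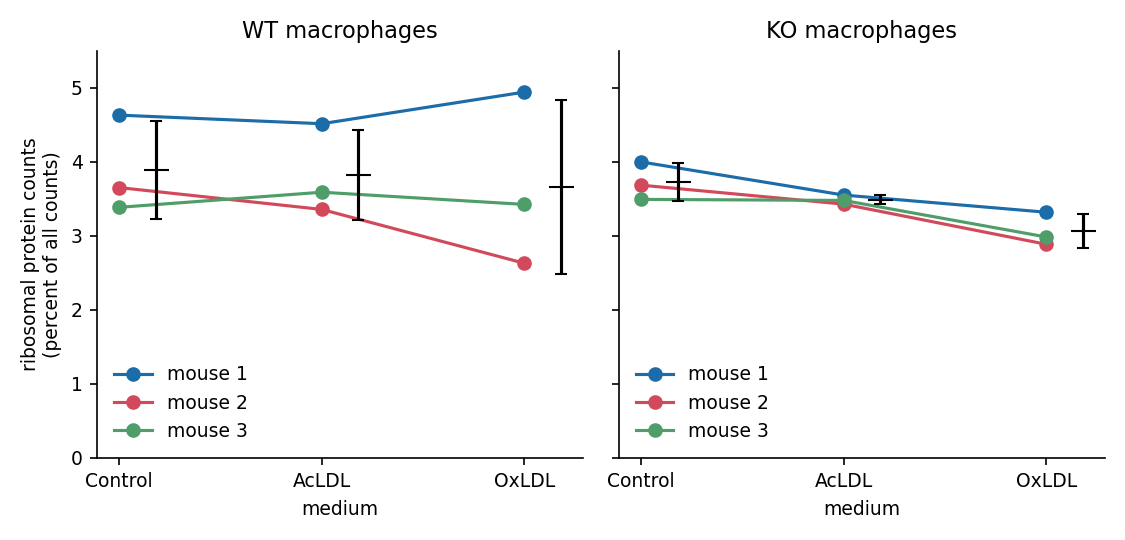
Share of all counts that came from the 80 ribosomal protein genes (y axis, percent) in Control, AcLDL and OxLDL (x axis), with 1 line per mouse and, beside the points, the group mean with its SD (n = 3). All 3 KO lines fall to 2.89% to 3.32% in OxLDL, while the WT lines fan out to between 2.63% and 4.94%.

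In KO macrophages OxLDL against Control gave the largest median difference of the comparisons made, and every member had a lower fitted level with OxLDL (80 of 80). The median log2 fold change of the members was -0.33, a decrease of 20.2%, beside 0.0044 over all genes tested, and the members ranged from -0.55 to -0.045. In edgeR without regard to the mouse, 1 of 80 members fell past an adjusted p of 0.05, where 1.66% of all genes tested did, and none rose, while 28 were lower at an unadjusted p under 0.05, beside 7.08% of all genes. Since each KO mouse gave a Control and an OxLDL library, the mouse was also taken as a block, and 45 of 80 members then fell, 16 of the small and 29 of the large subunit, with none that rose, beside 4.82% of all genes tested that fell. The libraries of both groups did not overlap for 59 members, all lower with OxLDL, beside 11.6% of all genes. In 77 members the level was lower with OxLDL in each of the 3 mice, beside 20.5% of all genes. Members vary together, so that these counts do not stand for separate observations.

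The summed macrophage markers (10 of 10 detected, none at 0) also differed, with 13411 to 15264 CPM in KO OxLDL and 18597 to 21996 in KO Control. In WT they were at 22012 to 31013 CPM in OxLDL and 25433 to 36129 in Control. The list holds *Lyz2*, the gene that carries the Cre. Their part in the lower ribosomal protein levels was not tested.

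*Rps15*, a protein of the small subunit head and the member that passed without the block, was at 198, 200 and 194 CPM in KO Control and at 141, 142 and 122 CPM in KO OxLDL. The groups did not overlap. Its log2 fold change was -0.55 ± 0.15 (SE), with an adjusted p of 0.0469 in edgeR's quasi-likelihood test and of 0.000662 with the mouse as a block. Within the mice it was lower by 0.49, 0.49 and 0.66 on the log2 scale (edgeR CPM with a prior count of 2). Leaving out any of the 6 libraries took the adjusted p to 0.114 to 0.222, and scaling to library size alone took it to 0.0958. It was also the member with the widest range of group means, 0.64 on the log2 scale, ahead of *Rplp1* (0.62) and *Rps4x* (0.60).

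The next members by unadjusted p did not pass without the block. *Rps29*, a zinc-binding protein of the small subunit, was at 192, 181 and 168 CPM in KO Control and 120, 145 and 130 CPM in KO OxLDL, with an adjusted p of 0.146 and, in edgeR with the block, 0.00389. *Rps16* was at 288, 279 and 258 CPM in KO Control and 216, 172 and 203 CPM in KO OxLDL, with adjusted p = 0.158 and, with the block, 0.00216. For neither gene did the groups overlap.

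With the block, the largest falls beside *Rps15* were those of *Rpl28*, *Rps6*, *Rps9*, *Rpl29* and *Rps16*. *Rpl28* went from 237, 233 and 208 CPM in Control to 162, 152 and 160 CPM with OxLDL, a log2 fold change of -0.51 ± 0.11 (SE) and an adjusted p of 0.00147 in edgeR with the block. *Rps6*, the small subunit protein that S6 kinases phosphorylate downstream of mTORC1, went from 719, 687 and 593 to 484, 432 and 489 CPM (log2 fold change -0.51 ± 0.11, adjusted p = 0.00124). *Rps9*, which binds early in assembly of the small subunit, went from 733, 714 and 605 to 557, 444 and 452 CPM (-0.50 ± 0.10, adjusted p = 0.000723). The KO Control and KO OxLDL libraries of these 3 genes did not overlap. *Rpl29* was at 352, 334 and 349 CPM in Control and 250, 233 and 253 CPM with OxLDL, and with the smallest adjusted p of the set, 0.000193, it differed by -0.49 ± 0.088. *Rpl23a*, which lies at the exit of the peptide tunnel, was at 722, 683 and 590 CPM and at 449, 456 and 526 CPM (-0.47 ± 0.093, adjusted p = 0.000615). Without 1 of the KO mice the block called fewer members, 20 without mouse 1, 8 without mouse 2 and 21 without mouse 3, and all of them were among the 45. The share of all genes that fell was also smaller in these fits, at 3.0%, 2.67% and 2.74%.

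**Figure D2:**
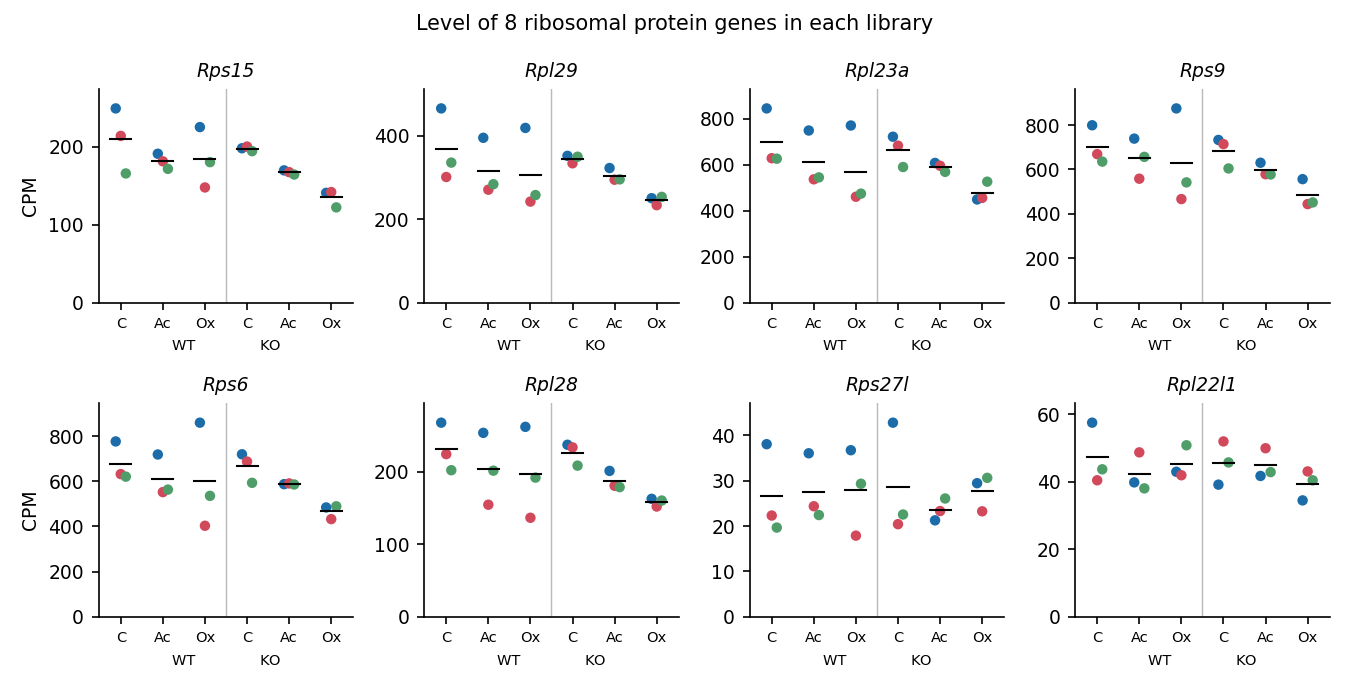
CPM (y axis, from 0) of 8 members in the 18 libraries, with C for Control, Ac for AcLDL and Ox for OxLDL, WT at the left and KO at the right of the grey line, points in blue, red and green for mice 1, 2 and 3 of the genotype and black lines for group means. The KO OxLDL points of *Rps15*, *Rpl29*, *Rpl23a*, *Rps9*, *Rps6* and *Rpl28* all lie below the KO Control points, while *Rps27l* and *Rpl22l1* overlap.

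The members with the smallest differences were *Rps27l* (log2 fold change -0.045 ± 0.29), *Rpl38* (-0.13 ± 0.16) and *Rps3* (-0.15 ± 0.16), none of which passed with or without the block. *Rps3*, *Rpl27* and *Rps27l* were the members that were not lower in all 3 KO mice, and they were picked out after their values were seen. *Rps3*, a protein at the mRNA entry of the small subunit with a role in DNA repair, had the narrowest range of group means (0.23 on the log2 scale), with 765, 718 and 639 CPM in KO Control and 741, 525 and 649 CPM in KO OxLDL. *Rpl22l1* (0.26) and *Rpl39* (0.28) followed.

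In WT macrophages the differences with OxLDL were not alike between mice. Neutrophil markers (7 of 7 detected, none at 0 over the group) summed to 142 to 252 CPM in WT OxLDL and 72.9 to 126 CPM in WT Control, without overlap, and their part in the WT values was not tested. The median log2 fold change of the members was -0.11, beside 0.0079 over all genes tested, with 70 of 80 members below 0. No member passed without the block, beside 1.07% of all genes tested that fell. At an unadjusted p under 0.05 in that fit, 2 members were lower, beside 658 of 12290 genes. With the block 2 fell, *Rps29* and *Rpl23a*, beside 2.86% of all genes. *Rps29* was at 218, 180 and 168 CPM in WT Control and 185, 119 and 140 CPM in WT OxLDL, a log2 fold change of -0.37 ± 0.11 (SE) with an adjusted p of 0.0339 in edgeR with the block. *Rpl23a* was at 845, 628 and 626 CPM and at 771, 460 and 474 CPM (-0.33 ± 0.093, adjusted p = 0.0343). For both genes the groups overlapped, because mouse 1 was high in either medium, and each of the 3 mice was lower with OxLDL. *Rps27*, which had the smallest p after *Rps29*, was the single member without overlap (1 of 80, beside 6.17% of all genes), with 119, 134 and 128 CPM in Control and 118, 98.8 and 98.5 CPM in OxLDL, and it did not pass with the block (adjusted p = 0.219).

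Lower levels in each of the 3 WT mice were seen for 17 of 80 members, beside 15.9% of all genes. The medians over members within each mouse were 0.093 in mouse 1, -0.52 in mouse 2 and -0.033 in mouse 3 on the log2 scale, compared with -0.32, -0.42 and -0.27 in the KO mice (the plot of changes within mice). WT mouse 2 with OxLDL thus had a larger decrease than any KO mouse, and the other WT mice little change. Without the WT OxLDL library of mouse 1 the WT median was -0.39, without that of mouse 2 it was 0.033, and without the WT Control library of mouse 1 it was 0.015, so 1 library decides its size and its sign. With WT mouse 1 left out of the block fit, 14 of 80 members fell, beside 3.04% of all genes tested.

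**Figure D3:**
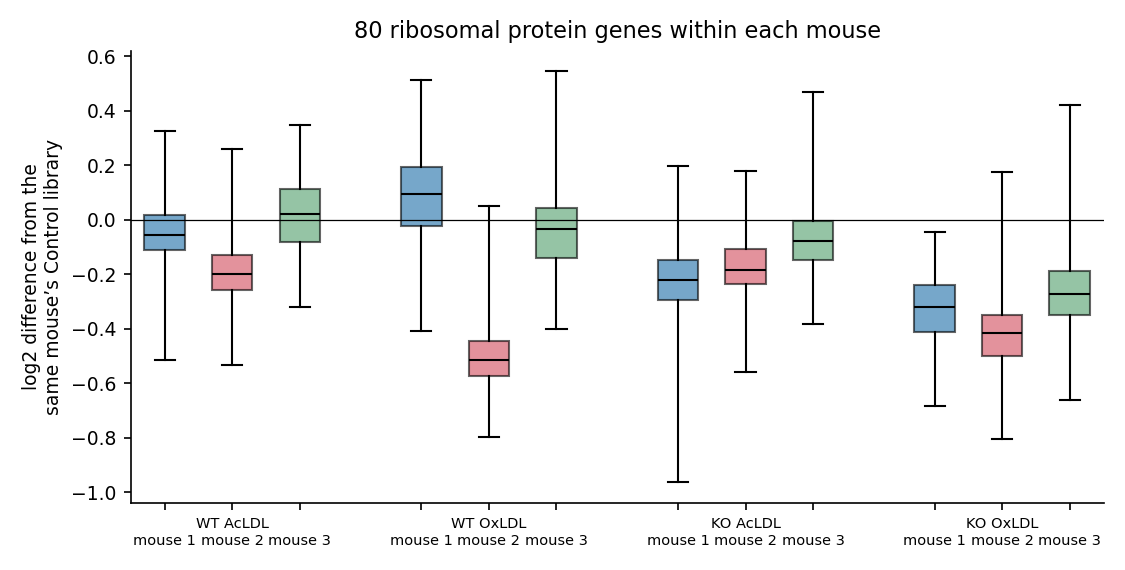
Log2 difference of each LDL library from the Control library of the same mouse (y axis) for the 80 members, as boxes with the median, the quartiles and the full range, by comparison and mouse (x axis). The boxes of the 3 KO mice with OxLDL have medians of -0.32, -0.42 and -0.27, while those of the WT mice have 0.093, -0.52 and -0.033.

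AcLDL gave smaller differences from Control. In KO the median of the members was -0.17 on the log2 scale, beside -0.0046 over all genes, with 79 of 80 members below 0 and *Rpl28* the lowest at -0.28. The summed macrophage markers were again lower, at 15930 to 18434 CPM against 18597 to 21996 in KO Control, and their part was not tested. No member passed without the block (0.521% of all genes tested did, in either direction) or with it (2.5% did), and no member had an unadjusted p under 0.05. Levels were lower in each of the 3 mice for 55 members, beside 18.7% of all genes. *Rps15* (198, 200 and 194 CPM in Control, 169, 167 and 164 CPM in AcLDL), *Rps16* and *Rpl36* had the smallest p. For none of these 3 did the groups overlap, at adjusted p of 0.771, 0.777 and 0.779 in edgeR and of 0.322, 0.238 and 0.343 with the block. Lower levels without overlap were seen for 24 of 80 members, beside 1152 of 12290 genes.

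In WT the median with AcLDL was -0.059, beside -0.003 over all genes, with 68 of 80 members below 0. No member passed without the block (0.472% of all genes did) or with it (2.16% did), and none had an unadjusted p under 0.05, while 29 members were lower in each of the 3 mice, beside 15.5% of all genes. *Rps27* (adjusted p = 0.725 in edgeR), *Rps29* and *Rps15* had the smallest p. Without the Control library of mouse 1 the median was 0.049, and without the AcLDL library of mouse 2 it was 0.

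**Figure D4:**
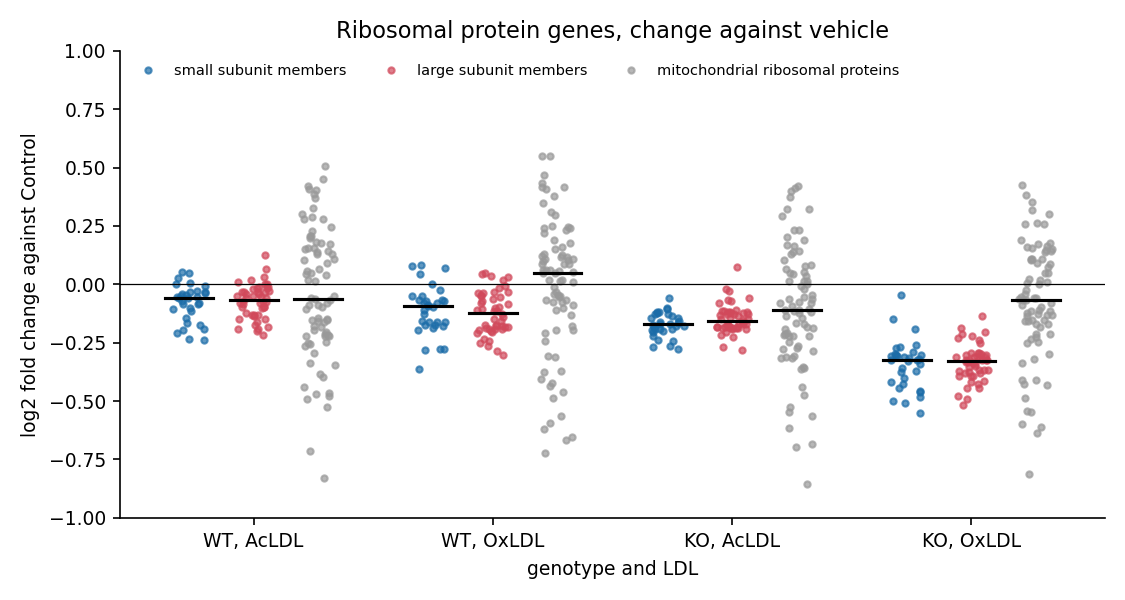
Log2 fold change against Control (y axis) of each small subunit member (blue), large subunit member (red) and mitochondrial ribosomal protein gene (grey) in the 4 comparisons of genotype and LDL (x axis), with black lines for medians. With OxLDL in KO all members lie below 0 with a median of -0.33, while the grey points spread around -0.068.

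The group means fell in the order Control, AcLDL and OxLDL in KO for 78 of 80 members, beside 21.7% of all genes tested, and in WT for 44 of 80, beside 18.7%. The mean of KO OxLDL was the lowest of the 6 groups for 79 members, beside 18.7% of all genes. Both comparisons with Control share the Control libraries of the genotype, and the doses of the lipoproteins differ. Set side by side in KO, OxLDL was lower than AcLDL by a median of 0.18 on the log2 scale. No member was called without the block (0.0651% of all genes were) or with it (1.38% were). At an unadjusted p under 0.05 without the block, 1 member was lower, beside 361 of 12290 genes. *Rps15* had the smallest p and differed by -0.31 (95% interval -0.62 to -0.005). In WT the median was -0.046, and again no member was called without the block (0.00814% of all genes were) or with it (0.732% were), and none at an unadjusted p under 0.05. *Rpl10a*, *Rpl36* and *Rpl3* had the smallest p, with adjusted p of at least 0.976. The WT median was -0.31 without the OxLDL library of mouse 1, 0.14 without that of mouse 2 and 0.098 without the AcLDL library of mouse 1.

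Genotypes were then compared within each medium. In Control the members differed little, with a median log2 fold change (KO against WT) of -0.039 and a range of -0.33 to 0.14, and no member was called (0.00814% of all genes were) or had an unadjusted p under 0.05. *Rpl27*, at 218, 171 and 146 CPM in WT and 166, 150 and 108 CPM in KO, *Rplp1* and *Rps27* had the smallest p. In AcLDL the median was -0.13, with no member called (0.0163% of all genes were) or at an unadjusted p under 0.05, and *Rpl38*, *Rpl35a* and *Rpl41* had the smallest p. Without the WT AcLDL library of mouse 1 this median was 0.0086, and without the WT Control library of mouse 1 the Control median was 0.09, compared with 0.01 without the KO Control library of mouse 3. In OxLDL the median was -0.26, with 79 of 80 members below 0 and no member called (0.00814% of all genes were). At an unadjusted p under 0.05, 2 members were lower, beside 323 of 12290 genes.

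*Rps15* had the smallest p in OxLDL, at 225, 148 and 180 CPM in WT and 141, 142 and 122 CPM in KO. The groups did not overlap, but the adjusted p was 0.933 for a difference of -0.45 (95% interval -0.75 to -0.14). Lower levels without overlap were seen for 2 of 80 members, beside 590 of 12290 genes. *Rpl37* (-0.35 ± 0.16, SE) and *Rps9* (-0.37 ± 0.18) followed. The result turned on 2 WT libraries. Without the WT OxLDL library of mouse 1 the median was -0.01, and without that of mouse 2 it was -0.43.

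Whether the response to LDL differed between the genotypes was tested as an interaction. For OxLDL the members' responses were lower in KO by a median of 0.22 on the log2 scale, with 79 of 80 below 0, but no member was called without the block (0% of all genes were) or with it (0% were), and none had an unadjusted p under 0.05. For *Rps15* the difference in response was -0.36 (95% interval -0.79 to 0.064), for *Rpl11* -0.41 (-0.93 to 0.10) and for *Rpl17* -0.43 (-0.995 to 0.13). These intervals hold 0 as well as responses far apart. Without the WT OxLDL library of mouse 1 the median difference was 0.033. For AcLDL the median was -0.08, with no member called without the block (0% of all genes were) or with it (0.0407% were) and none at an unadjusted p under 0.05, and *Rpl35*, *Rpl36* and *Rps26* had the smallest p. Without the WT AcLDL library of mouse 1 it was 0.034, and without the WT Control library of mouse 3 it was 0.011. A response that is particular to KO macrophages is therefore not shown. DESeq2 without the block called no member in any comparison other than OxLDL against Control in KO, where it called *Rps15*.

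Several ribosomal protein genes have a paralog. *Rpl7l1*, an assembly factor resembling *Rpl7*, was at 82.0, 84.2 and 81.9 CPM in KO Control and 58.1, 76.6 and 65.9 CPM in KO OxLDL, without overlap (adjusted p = 0.498 in edgeR, 0.230 with the block), while *Rpl7* was at 762, 674 and 593 and at 598, 523 and 500 CPM (0.508, and 0.0312 with the block). *Rpl22l1* stayed between 34.5 and 57.6 CPM in all 18 libraries. Its parent *Rpl22* was at 543, 480 and 497 CPM in KO Control and 493, 341 and 391 CPM in KO OxLDL, with an adjusted p of 0.0614 in edgeR with the block. *Rps27l*, which p53 is known to induce, was at 17.9 to 42.8 CPM and was highest in KO Control of mouse 1, whereas *Rps27* was at 93.1 to 134 CPM. *Rpl36al*, whose name the rule does not take in, was at 116, 94.7 and 108 CPM in KO Control and 79.98, 91.7 and 79.8 CPM in KO OxLDL (log2 fold change -0.34 ± 0.18), near its parent *Rpl36a* (-0.32 ± 0.20). None of the 4 paralogs tested was called in KO OxLDL in edgeR, with or without the block, or had an unadjusted p under 0.05.

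Other parts of the ribosome and its pathway were read from lists. *Fau*, which encodes ribosomal protein S30 fused to a ubiquitin-like protein, was at 590, 604 and 545 CPM in KO Control and 485, 439 and 410 CPM in KO OxLDL (adjusted p = 0.0154 in edgeR with the block), and *Rack1*, a scaffold on the small subunit, was at 770, 766 and 706 and at 635, 532 and 596 CPM (0.0349). Of 21 translation factors and other mRNAs of TOP type that were tested, 1 fell in KO OxLDL without the block (1.66% of all genes did) and 11 with it (4.82% did), and none rose. Their median log2 fold change was -0.32, beside -0.33 for the members.

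The call without the block was *Hnrnpa1*, an RNA-binding protein, at 196, 186 and 171 CPM in KO Control and 127, 111 and 125 CPM in KO OxLDL (adjusted p = 0.0113 in edgeR). *Eif3l* followed (adjusted p = 0.0553, and 0.00152 with the block). *Eef2*, the translocation factor, was at 1417, 1452 and 1416 CPM in KO Control and 1061, 1033 and 1074 CPM in KO OxLDL (0.120, and 0.000393 with the block). In WT *Eef2* was at 1812, 1484 and 1465 and at 1348, 1122 and 1200 CPM, without overlap and with an adjusted p of 0.00361 with the block. Of the 21 translation factors and other mRNAs of TOP type, 4 fell in WT OxLDL with the block, beside 2.86% of all genes. Without overlap 4 were lower, beside 6.17% of all genes, and 1 was higher. *Eef1a1* fell with the block in KO (adjusted p = 0.0255) and *Tpt1* did not pass (0.146).

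Of 50 ribosome assembly genes, none was called in KO OxLDL in edgeR without the block (6 were lower at an unadjusted p under 0.05, beside 7.08% of all genes), and with it *Nhp2*, a protein of the box H/ACA particles, and *Ncl*, nucleolin, fell (adjusted p = 0.0136 and 0.0342 in edgeR). These 2 of 50 are near the 4.82% of all genes that fell. The median of the list was -0.13. *Npm1*, nucleophosmin, is held in the TOP list and fell with the block (0.00784). Of the 16 genes that control ribosomal protein translation or transcription, none was called in edgeR with or without the block, and 1 was lower at an unadjusted p under 0.05. *Larp1* was at 117, 129 and 126 CPM in KO Control and 114, 91.7 and 109 CPM in KO OxLDL (adjusted p = 0.241 in edgeR with the block), and *Myc* was at 11.5, 29.1 and 27.1 and at 32.0, 29.4 and 34.1 CPM, without overlap (0.178 with the block). KO mouse 1 was low in *Myc* in Control.

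Mitochondrial ribosomal proteins, which build the ribosome of the organelle and are not of the TOP class, had a median closer to that of all genes. All 78 were tested, their median in KO OxLDL was -0.068 with 46 below 0, and *Mrpl52* was the single gene called with the block (adjusted p = 0.00172 in edgeR), at 63.3, 49.5 and 46.4 CPM in Control and 31.2, 32.2 and 27.7 CPM with OxLDL. *Mrpl38* came next by p and did not pass (adjusted p = 0.210 with the block). Their single genes have far fewer counts than the members, and their share of all counts was 0.175% ± 0.0059 in KO Control and 0.173% ± 0.0073 in KO OxLDL. Across the 80 members the KO OxLDL fold change had a Spearman rho of -0.12 with GC content, -0.073 with length and -0.105 with mean level, given as a description of genes that share all libraries.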

How the data were processed

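Total RNA of 18 macrophage cultures was sequenced. Per the study's methods, reads went through the nf-core pipeline with Trim Galore and STAR (mm10), the submitters' processing notes also name Salmon, and the authors deposited 1 table of estimated counts per gene, without normalization. Versions are not given in the sources used here. Each of its 18 value columns belonged to a sample by name, and 0 columns of other samples were present. Values were rounded, and filterByExpr (min.count 2, min.total.count 10) kept 12290 genes. All 6 groups entered a single edgeR 4.0.16 (R 4.3.3) quasi-likelihood model with TMM factors, leaving 12 residual degrees of freedom, or 8 with the mouse as a block. Benjamini-Hochberg adjustment covered every gene tested, at 0.05. DESeq2 1.42.0, the study's own tool, was an alternative, as were library size alone, other filters, only the compared libraries and leaving out each library. The labels tie libraries to mice. Libraries of a mouse deviated together from their group means (r = 0.0931 to 0.482, over 0.1 in 17 of 18 pairs). Libraries of a group varied beyond counting noise, with chi-square over its degrees of freedom between 2.03 and 12.7. CPM are TMM-scaled. The models were tested on simulated data. Lengths and shared words came from GENCODE and starts from RefSeq, by symbol.

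The members and lists were chosen with earlier results of these data known. Named were, in each comparison, called members (at most the 6 largest changes each way, with the block likewise) or the 3 with the smallest p, the 3 extremes of level per length and of the range of group means, paralogs with their parents, 3 members beside pseudogenes, members below the count minimum, and the 2 genes with the smallest p of other lists. *Rpl23a* in KO OxLDL and the least changed members there were chosen after their values were seen. Some genes that this rule names are not reported here.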

Additional observations from a re-analysis of the deposited data

How the results depend on the processing

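The count of members that fell in KO with OxLDL was 1 without the mouse as a block. All genes called in that fit, in either direction, were 285 of 12290, and 81 of them rose. The count of members was 0 with library size alone (274 of 12290 genes called, of which 108 rose). It was 2 with no filter (491 of 22179 called, of which 148 rose). With only the libraries compared it was 29 (751 of 11336 genes called, of which 249 rose). It was 0 in each of the 6 fits that left out a library. With the replicate block it was 45, beside 4.82% of all genes that fell. With the block and DESeq2 it was 31 (2.58% of all genes), and with the block and library size alone 25 (3.83%). With the block and without KO mouse 1, 2 or 3 it was 20, 8 or 21, beside 3.0%, 2.67% or 2.74%. In WT with OxLDL the count of 0 became 2 with the block, beside 2.86% of all genes that fell. It became 1 with the block and DESeq2 (1.75%) and 14 with the block and without WT mouse 1 (3.04%). For the genotype difference in OxLDL response it became 1 (*Rpl17*) with the block and without WT mouse 2. In that fit 9 of 12486 genes were called in either direction. The fits that combine the block with another choice were added after seeing the data. The block changed no other count of members. For the genotype comparisons, whose mice share a number only, the number as a block called no member.

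Leaving out single libraries took the median log2 fold change of the members in OxLDL against Control from -0.39 to -0.28 in KO and from -0.39 to 0.033 in WT. In AcLDL against Control it gave -0.20 to -0.11 in KO and -0.18 to 0.049 in WT, and in OxLDL against AcLDL -0.24 to -0.13 in KO and -0.31 to 0.14 in WT. Between genotypes it gave -0.11 to 0.09 in Control, -0.20 to 0.009 in AcLDL and -0.43 to -0.01 in OxLDL. The difference in response gave -0.39 to 0.033 for OxLDL and -0.21 to 0.034 for AcLDL. The fold change of *Rpl36* in WT OxLDL against AcLDL ranged from -0.41 without the WT OxLDL library of mouse 1 to 0 without that of mouse 2. Without the predicted gene *Gm26917* in the total, the share of members was 4.13% in KO Control, 3.85% in KO AcLDL and 3.42% in KO OxLDL, and without mitochondrial transcripts as well 4.23%, 3.94% and 3.51%. The causes of these shifts were not tested. With library size alone, the genes that rose in KO with OxLDL were 39.4% of those called against 28.4% with TMM, and the median of the members was -0.27. The level per length spanned 48.1-fold with the median transcript length.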
